A study of Mus musculus with 9 samples.

Results

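The genes described here are 10 enzymes through which the liver makes, interconverts and clears steroid hormones: Cyp17a1, Hsd17b2, Hsd17b11, Akr1c6, Akr1c19, Hsd3b5, Hsd3b2, Srd5a1, Hsd11b1 and Sult1e1. They were chosen by name and function out of 45513 genes in the count table, with earlier results of these data in view, so counts set beside all genes are descriptions. Of the 10, 9 passed the filter on low counts. RNA was sequenced from livers of C57BL/6 mice in 3 groups of 3 libraries: high fat diet with B-LGND2, high fat diet with vehicle, and normal diet with vehicle. Diet and treatment lasted 9 weeks in each group. B-LGND2 is known here only by its code name, and the series title presents it as a ligand of estrogen receptor beta. No group received B-LGND2 on the normal diet, so the ligand was compared with vehicle on the high fat diet alone. The sources used here give no dose, sex or age and do not say what the diets were made of.

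Steroid hormones reach the liver in blood, and hepatic enzymes set how much of each active form returns to the circulation. Hydroxysteroid dehydrogenases and aldo-keto reductases switch a steroid between its hydroxyl and its keto form, which often differ in their affinity for a receptor. Reductases of the steroid ring and sulfotransferases then prepare the hormone for other receptors or for excretion.

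RefSeq promoter sequences (build GRCm38.p6) were at hand for 8 of the 10 genes: Akr1c6, Akr1c19, Hsd3b5, Hsd3b2, Hsd11b1, Srd5a1, Sult1e1 and Hsd17b11. The 250 bases before the start of the RefSeq transcript are printed for Akr1c19 and Hsd11b1, because these were the members that fell in B-LGND2 livers relative to normal diet livers. Both are written 5′ to 3′ on the strand of the gene, in lower case, with a match to the searched motif TTCNNNGAA in capitals. Both RefSeq starts lie inside the GENCODE span of the gene given below, 5040 bases from its 5′ end for Akr1c19 and 21715 bases from it for Hsd11b1, so these windows lie before an internal start.
Akr1c19, chr13:4233490-4233739, plus strand: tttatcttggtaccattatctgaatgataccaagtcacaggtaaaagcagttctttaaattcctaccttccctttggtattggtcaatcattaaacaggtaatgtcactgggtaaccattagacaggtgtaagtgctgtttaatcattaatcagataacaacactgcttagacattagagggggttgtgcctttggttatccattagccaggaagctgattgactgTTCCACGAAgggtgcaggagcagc
Hsd11b1, chr1:193242361-193242610, minus strand: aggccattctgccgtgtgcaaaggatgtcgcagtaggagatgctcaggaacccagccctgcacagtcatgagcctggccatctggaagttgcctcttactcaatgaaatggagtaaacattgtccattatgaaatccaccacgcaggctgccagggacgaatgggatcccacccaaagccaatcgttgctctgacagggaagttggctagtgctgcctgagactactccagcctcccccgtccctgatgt

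Both strands of these windows were searched for 4 short motifs, and each was found in 1 of the 8 promoters. TTCNNNGAA, the core of a STAT site, lay 24 bases before this RefSeq start of Akr1c19, and 7.02% of all 32851 promoters hold it. AGGTCA, a nuclear receptor half-site, was found before Sult1e1 and is held by 14.0% of all promoters. AGAACA, a half-site of glucocorticoid and androgen receptors, was found before Hsd3b2 and is held by 16.1%, and TATAAA was found before Akr1c6 and is held by 12.4%. The Hsd11b1 window held none of the 4. These matches describe letters in a window and show no binding.

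Total counts per library ran from 5778978 to 10322972 in B-LGND2 livers, from 5906427 to 6429862 in high fat vehicle livers and from 5845924 to 8116744 in normal diet livers. Hepatocyte markers summed to 63651 to 100118 CPM (counts per 1e6 counts) in B-LGND2 livers, 67604 to 72372 CPM in high fat vehicle livers and 64983 to 74818 CPM in normal diet livers. Most of each sum was Alb and Apoa1. With B-LGND2 and high fat vehicle, Alb had 34227 ± 3395 and 46696 ± 2317 CPM (edgeR adjusted p = 0.244). Apoa1 had 33960 ± 20929 and 12831 ± 972 CPM in those groups (SD, n = 3 each, edgeR adjusted p = 0.0283). Of the 7 markers, 3 were lower in every B-LGND2 library than in every high fat vehicle library and 1 was higher, against 17.2% and 16.4% of all genes. Gene models of ribosomal RNA took 4.31% to 6.19% of counts with B-LGND2, 0.901% to 1.44% with high fat vehicle and 3.16% to 3.74% on normal diet, so the groups did not overlap. With that share as a covariate none of the 8 member calls given below remained, with edgeR adjusted p-values between 0.286 and 0.980, and share and group cannot be told apart. The SEs grew in that fit. The estimates were larger than without the covariate for Hsd17b2 in both its calls (2.08 ± 0.71 for B-LGND2 against high fat vehicle) and for Akr1c19 in high fat against normal diet (−1.20 ± 0.52), and smaller for the other 5. Of these, Cyp17a1 was at 1.80 ± 1.47 against high fat vehicle and 2.68 ± 0.77 against normal diet, Akr1c19 at −0.89 ± 0.98 and −2.09 ± 0.58, and Hsd11b1 near 0 against normal diet (−0.18 ± 0.40). Log2 of CPM plus 1 was also centred on each gene's mean over the 9 libraries. In each library these deviations were correlated with transcript length and GC content across protein-coding genes. High fat vehicle libraries stood apart in the correlation with transcript length (Spearman 0.328 to 0.367, against −0.520 to 0.191 in the other 6). The first B-LGND2 library had a correlation of the deviations with GC content of 0.526, against at most 0.083 elsewhere. Mitochondrial counts took 12.7% of the first normal diet library and 3.69% to 6.12% of the others. Macrophage markers, none of which was at 0, summed to 1171 to 1503 CPM in B-LGND2 livers, 329 to 443 CPM in high fat vehicle livers and 352 to 600 CPM in normal diet livers. Of these 12 markers, 10 rose in B-LGND2 livers against high fat vehicle livers and 9 against normal diet livers, where 3.07% and 1.59% of all genes rose. The part of these markers in the results below was not tested. Endothelial markers summed to 191 to 215 CPM in B-LGND2 livers, against 105 to 147 CPM in high fat vehicle livers and 128 to 176 CPM in normal diet livers. In bulk liver, fewer cells of a type and less RNA per cell cannot be told apart.

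B-LGND2 on the high fat diet went with more Cyp17a1 and Hsd17b2 RNA and less Akr1c19 RNA than vehicle on that diet. These were 3 of the 9 members tested, against 5.63% of all 12102 genes tested, of which 3.07% rose and 2.56% fell (edgeR quasi-likelihood test over all genes, Benjamini-Hochberg adjusted p under 0.05). The high fat diet itself went with less Hsd17b2 and Akr1c19 RNA than the normal diet under vehicle, 2 of 9 members against 2.99% of all genes (1.5% rose and 1.49% fell). B-LGND2 livers differed from normal diet livers by more Cyp17a1 and less Akr1c19 and Hsd11b1 RNA, 3 of 9 members against 2.93% of all genes (1.59% rose and 1.33% fell). The 3 comparisons share libraries and are not independent of each other. The count of 2 was 0 without any single high fat vehicle library and 1 without the second normal diet library, and the first count of 3 was 1 without the first or the second high fat vehicle library.

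The median log2 fold change of the 9 members was −0.39 for B-LGND2 against high fat vehicle, −0.43 for high fat against normal diet and −0.02 for B-LGND2 against normal diet. Over all genes tested the medians were −0.003, 0.005 and −0.006 in the same order. Libraries of B-LGND2 and high fat vehicle livers did not overlap for 6 of the 9 members, 3 higher and 3 lower, where 33.6% of all genes showed no overlap (16.4% higher and 17.2% lower). High fat vehicle and normal diet livers did not overlap for 4 members, all lower on the high fat diet, where 30.1% of all genes showed no overlap (15.4% higher and 14.8% lower). B-LGND2 and normal diet livers did not overlap for 5 members, 1 higher and 4 lower, where 20.5% of all genes showed no overlap (10.5% higher and 10% lower).

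**Figure D1:**
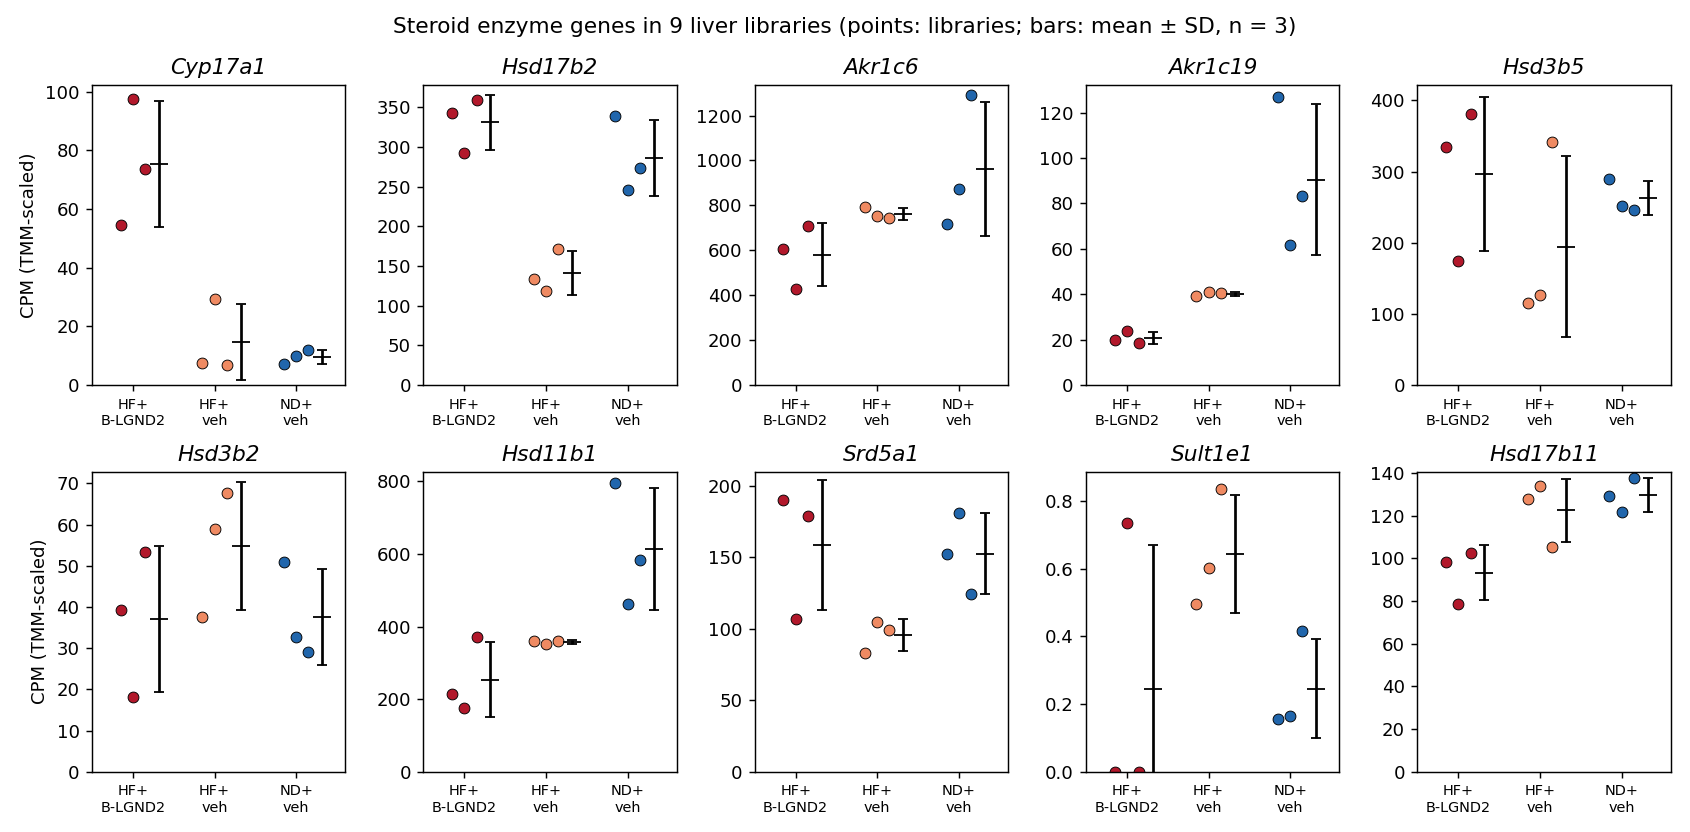
Level of each member in CPM on linear axes that start at 0, 1 panel a gene, with B-LGND2, high fat vehicle and normal diet livers from left to right; points are the 3 libraries of a group and bars are mean ± SD. Cyp17a1 stands at 54.7 to 97.6 CPM in B-LGND2 livers and at no more than 29.5 CPM in the other libraries, and the Akr1c19 libraries are lowest in B-LGND2 livers, higher in high fat vehicle livers and highest in normal diet livers, without overlap. The SD bar of Sult1e1 in B-LGND2 livers ends at the axis because the SD exceeds the mean.

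Cyp17a1 (chr19:46667165-46673172, minus strand, GRCm38) encodes the hydroxylase and lyase that turns pregnenolone and progesterone into androgen precursors in gonads and, in many species, the adrenal gland. It had 54.7, 97.6 and 73.8 CPM in B-LGND2 livers, against 7.42, 29.5 and 6.83 CPM in high fat vehicle livers and 7.17, 9.92 and 11.9 CPM in normal diet livers. Every B-LGND2 library was above every other library, and the second high fat vehicle library stood above the other 5 vehicle libraries. The increase was 5.16-fold over high fat vehicle (log2 fold change 2.37 ± 0.46 SE, edgeR adjusted p = 0.0143) and 7.76-fold over normal diet (2.96 ± 0.48, edgeR adjusted p = 0.00657).

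The size of the Cyp17a1 increase depended on single libraries. Without the second high fat vehicle library the log2 fold change over high fat vehicle was 3.40, with an edgeR adjusted p of 3.25e-04. Without the first high fat vehicle library it was 2.05, with an edgeR adjusted p of 0.05002, and without the third normal diet library the call over normal diet was lost (edgeR adjusted p = 0.0612). Between high fat vehicle and normal diet livers no difference passed the test (0.59 ± 0.47, edgeR adjusted p = 0.487), and the estimate turned to −0.44 without the second high fat vehicle library. The RNA came with few reads of other gland genes: 7 markers of adrenal and gonadal steroidogenic cells held 229 counts over all 9 libraries, with Cyp11b2 and Cyp19a1 at 0. Those markers summed to 1.32 to 3.48 CPM in B-LGND2 livers, 3.79 to 5.16 CPM in high fat vehicle livers and 2.15 to 5.81 CPM in normal diet livers, and so their sum was not higher with B-LGND2. Most of the 229 counts were of Cyp21a1 (127) and Star (83). Cyp11a1, Cyp11b1 and Nr5a1 held 8, 10 and 1, all in the third normal diet library, with means of 0 CPM in both high fat groups.

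Hsd17b2 (chr8:117701904-117759027, plus strand) encodes a dehydrogenase that oxidises estradiol to estrone and testosterone to androstenedione, lowering the active forms. It had 342, 293 and 359 CPM in B-LGND2 livers, 133, 119 and 171 CPM in high fat vehicle livers and 339, 245 and 274 CPM in normal diet livers. All 3 high fat vehicle libraries were below the other 6, among which B-LGND2 and normal diet livers overlapped. B-LGND2 livers had 2.35-fold more Hsd17b2 RNA than those given vehicle on this diet (log2 fold change 1.23 ± 0.22 SE, edgeR adjusted p = 0.00678).

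Under vehicle, Hsd17b2 in livers of the high fat group was 2.03-fold lower than in normal diet livers (−1.02 ± 0.22, edgeR adjusted p = 0.0253). B-LGND2 livers differed from normal diet livers by 0.21 ± 0.22, which did not pass the test (edgeR adjusted p = 0.635). The diet call was lost without any single high fat vehicle library (edgeR adjusted p = 0.111, 0.135 and 0.0626 without replicates 1, 2 and 3), without the second normal diet library (0.0521) and when offsets for length and GC content were added (0.0535). The ligand call was lost without the second high fat vehicle library (edgeR adjusted p = 0.0593). The ribosomal RNA share was also lowest in high fat vehicle livers, and with it as a covariate the diet difference in Hsd17b2 was −1.455 with an SE of 0.409 and did not pass (edgeR adjusted p = 0.286). The correlation of deviations from each gene's mean with transcript length was highest in the same 3 libraries. The part of that correlation was examined only through the offsets above.

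Hsd17b11 (chr5:103989762-104021919, minus strand) belongs to the same dehydrogenase family and encodes a protein of lipid droplets. It had 98.5, 78.7 and 103 CPM in B-LGND2 livers, against 128, 134 and 106 CPM in high fat vehicle livers and 129, 122 and 138 CPM in normal diet livers. The 3 B-LGND2 libraries were the lowest of the 9, by a narrow margin from the third high fat vehicle library. The log2 fold changes of −0.39 ± 0.20 against high fat vehicle and −0.47 ± 0.20 against normal diet did not pass the test (edgeR adjusted p = 0.254 and 0.210). High fat vehicle and normal diet livers overlapped (−0.08 ± 0.20, edgeR adjusted p = 0.846).

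Akr1c6 (chr13:4434306-4457877, plus strand) and Akr1c19 (chr13:4228700-4252843, plus strand) lie in the aldo-keto reductase cluster of chromosome 13. Akr1c6 encodes a hepatic ketosteroid reductase that forms testosterone and estradiol from their keto precursors. It had 606, 428 and 707 CPM in B-LGND2 livers, 794, 751 and 743 CPM in high fat vehicle livers and 718, 873 and 1293 CPM in normal diet livers. The B-LGND2 libraries were below all others, while both vehicle groups overlapped. Neither difference from B-LGND2 passed the test: the log2 fold change was −0.39 ± 0.25 against high fat vehicle (edgeR adjusted p = 0.352) and −0.73 ± 0.25 against normal diet (edgeR adjusted p = 0.127). The second of these passed without the first normal diet library (edgeR adjusted p = 0.0460).

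Akr1c19 had 19.7, 23.8 and 18.5 CPM in B-LGND2 livers, 39.2, 40.9 and 40.7 CPM in high fat vehicle livers and 127, 61.5 and 83.1 CPM in normal diet livers. The 3 groups formed 3 separate steps, with the widest spread on the normal diet (coefficient of variation 36.8%) and the narrowest in high fat vehicle livers (2.24%). It was 4.37-fold lower in B-LGND2 than in normal diet livers (log2 fold change −2.13 ± 0.26 SE, edgeR adjusted p = 0.000580), a call that was kept without any single library, at −1.81 to −2.34.

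Each of the steps on its own was less secure. Akr1c19 was 1.95-fold lower in B-LGND2 than in high fat vehicle livers (−0.96 ± 0.26, edgeR adjusted p = 0.0400), and 2.25-fold lower in high fat vehicle than in normal diet livers (−1.17 ± 0.25, edgeR adjusted p = 0.0274). The ligand call was lost without any of its own 6 libraries (edgeR adjusted p = 0.149, 0.0506 and 0.0964 without B-LGND2 replicates 1, 2 and 3, and 0.110, 0.138 and 0.115 without those of high fat vehicle) and after correction for length and GC content (0.112). The diet call was lost without any single high fat vehicle library (edgeR adjusted p = 0.106, 0.103 and 0.108) and in a fit of those groups alone (0.0541). An exon of the processed pseudogene Marcksl1-ps4 overlaps Akr1c19 on the same strand, and 4.18% of the 50-base windows of the longest Akr1c19 transcript occur in another gene, so reads there cannot be assigned with certainty.

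Hsd3b5 (chr3:98618634-98630252, minus strand) encodes a ketosteroid reductase of the mouse liver, known for its higher expression in males, that inactivates dihydrotestosterone. It had 335, 175 and 381 CPM in B-LGND2 livers, 115, 126 and 342 CPM in high fat vehicle livers and 290, 251 and 246 CPM in normal diet livers. The spread was widest in high fat vehicle livers, where the third library was within the range of B-LGND2 livers and the other 2 were the lowest of all 9. No comparison passed the test, with log2 fold changes of 0.61 ± 0.37 for B-LGND2 against high fat vehicle, −0.43 ± 0.37 for high fat against normal diet and 0.18 ± 0.37 for B-LGND2 against normal diet (edgeR adjusted p = 0.332, 0.518 and 0.834). Without the third high fat vehicle library the first was 1.29, with an edgeR adjusted p of 0.0496. Of 10 genes with male-biased expression in mouse liver, Ugt2b38 alone rose with B-LGND2 against high fat vehicle by the edgeR test, and its libraries overlapped. Of the 10, 6 were below 0 there. Cyp4a12a and Cyp4a12b fell in each of the other comparisons. Over all genes 3.07% rose in the first of these, and 1.49% and 1.33% fell in the others. Ugt2b38, Cyp4a12a and Cyp4a12b were named after their values were seen. Of 12 female-biased genes 2 were tested. With B-LGND2 against high fat vehicle 1 fell (2.56% of all genes), and on high fat against normal diet 1 rose (1.5%).

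Hsd3b2 (chr3:98709255-98724543, minus strand) is a member of the dehydrogenase and isomerase family whose gland forms convert pregnenolone to progesterone. It had 39.4, 18.2 and 53.5 CPM in B-LGND2 livers, 37.6, 59.0 and 67.7 CPM in high fat vehicle livers and 50.8, 32.7 and 29.0 CPM in normal diet livers. All 3 groups overlapped. The log2 fold changes of −0.57 ± 0.34 for B-LGND2 against high fat vehicle, 0.55 ± 0.34 for high fat against normal diet and −0.02 ± 0.34 for B-LGND2 against normal diet did not pass the test (edgeR adjusted p = 0.323, 0.362 and 0.983). Reads of both Hsd3b genes are uncertain, since 21.2% of the 50-base windows of Hsd3b5 and 27.3% of those of Hsd3b2 occur in other genes, most often in Gm10681 for Hsd3b5 and in Hsd3b3 for Hsd3b2. An exon of Zfp697 on the opposite strand also overlaps Hsd3b2.

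Srd5a1 (chr13:69573449-69611442, minus strand) encodes the reductase that turns testosterone into dihydrotestosterone and starts the clearance of glucocorticoids. It had 190, 107 and 179 CPM in B-LGND2 livers, 83.0, 105 and 98.8 CPM in high fat vehicle livers and 153, 181 and 124 CPM in normal diet livers. High fat vehicle libraries were the lowest 3 of the 9, and the second B-LGND2 library was close to them. The log2 fold changes of 0.73 ± 0.24 for B-LGND2 against high fat vehicle and −0.68 ± 0.24 for high fat against normal diet did not pass the test (edgeR adjusted p = 0.0820 and 0.117), and B-LGND2 against normal diet gave 0.06 ± 0.24 (edgeR adjusted p = 0.925).

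The Srd5a1 difference between B-LGND2 and high fat vehicle passed without the second B-LGND2 library (0.97, edgeR adjusted p = 0.0320), without the third normal diet library (edgeR adjusted p = 0.0417), in a fit of those groups alone (0.0443) and by the DESeq2 Wald test (0.0471). The annotated transcript Gm17108 overlaps exons of Srd5a1 on the same strand and shares 16.5% of its 50-base windows.

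Hsd11b1 (chr1:193221634-193264075, minus strand) encodes the dehydrogenase that regenerates active glucocorticoid from its inert keto form in the liver. It had 213, 177 and 371 CPM in B-LGND2 livers, 360, 352 and 360 CPM in high fat vehicle livers and 795, 463 and 584 CPM in normal diet livers. Normal diet libraries were the highest 3, and the third B-LGND2 library was above all high fat vehicle libraries while the other 2 were below them. High fat vehicle libraries varied by 1.36% (coefficient of variation), against a median of 14.1% over all genes tested in that group.

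Hsd11b1 was 2.42-fold lower in B-LGND2 than in normal diet livers (log2 fold change −1.27 ± 0.27 SE, edgeR adjusted p = 0.0210). This call was lost without the first or the second B-LGND2 library (edgeR adjusted p = 0.104 and 0.0741), after correction for length and GC content (0.0766) and in a fit of those groups alone (0.0550). B-LGND2 against high fat vehicle gave −0.49 ± 0.27, and high fat vehicle against normal diet −0.78 ± 0.27, neither of which passed the test (edgeR adjusted p = 0.275 and 0.108). The diet difference passed when no filter on low counts was applied (edgeR adjusted p = 0.0290).

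Sult1e1 (chr5:87575969-87591594, minus strand) encodes estrogen sulfotransferase, which adds sulfate to estradiol and estrone. It had 0, 5 and 0 counts in B-LGND2 livers, 3, 4 and 6 counts in high fat vehicle livers and 1, 1 and 3 counts in normal diet livers. With 23 counts over 9 libraries it did not pass the filter. In a fit without the filter no difference passed (edgeR adjusted p = 0.590 for B-LGND2 against high fat vehicle, 0.650 for high fat against normal diet and 1 for B-LGND2 against normal diet), so none was detectable at this depth.

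**Figure D2:**
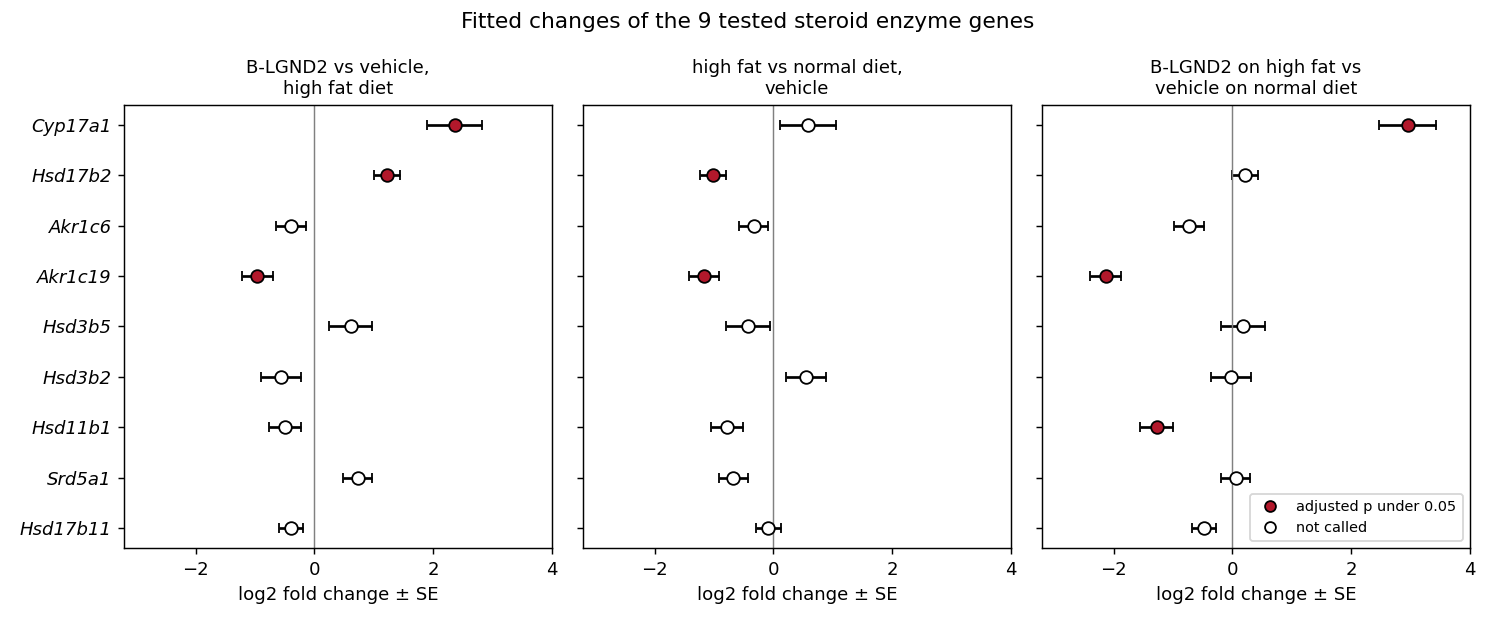
Log2 fold change (x axis) with its SE for the 9 members tested (y axis) in B-LGND2 against high fat vehicle, high fat against normal diet under vehicle, and B-LGND2 against normal diet; filled points have an edgeR adjusted p under 0.05. Filled points are Cyp17a1 (2.37), Hsd17b2 (1.23) and Akr1c19 (−0.96) in the first comparison, Hsd17b2 (−1.02) and Akr1c19 (−1.17) in the second, and Cyp17a1 (2.96), Akr1c19 (−2.13) and Hsd11b1 (−1.27) in the third.

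Levels were set against each other as CPM per kb of exons. In B-LGND2 livers Akr1c6 came first at 286 ± 69.5 CPM per kb, ahead of Hsd3b5 at 192 ± 69.8 and Hsd17b2 at 172 ± 17.9 (SD, n = 3). Hsd11b1 (59.7), Srd5a1 (54.5), Hsd17b11 (28.6), Cyp17a1 (27.2), Hsd3b2 (10.02), Akr1c19 (3.51) and Sult1e1 (0.197) followed in mean CPM per kb. In that group the library ranges of neighbours overlapped for Akr1c6 and Hsd3b5, Hsd3b5 and Hsd17b2, Hsd11b1 and Srd5a1, and Hsd17b11 and Cyp17a1.

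High fat vehicle livers had the order Akr1c6 (375 CPM per kb), Hsd3b5 (126), Hsd11b1 (84.1), Hsd17b2 (73.3), Hsd17b11 (37.5), Srd5a1 (32.8), Hsd3b2 (14.8), Akr1c19 (6.84), Cyp17a1 (5.26) and Sult1e1 (0.519). Ranges overlapped between Hsd3b5 and Hsd11b1, Hsd11b1 and Hsd17b2, Hsd17b11 and Srd5a1, and Akr1c19 and Cyp17a1. In normal diet livers the order was Akr1c6 (473 CPM per kb), Hsd3b5 (169), Hsd17b2 (149), Hsd11b1 (144), Srd5a1 (52.4), Hsd17b11 (39.7), Akr1c19 (15.4), Hsd3b2 (10.2), Cyp17a1 (3.49) and Sult1e1 (0.198). Ranges there overlapped between Hsd3b5 and Hsd17b2, Hsd17b2 and Hsd11b1, and Akr1c19 and Hsd3b2. Cyp17a1 thus stood next to Hsd17b11 in B-LGND2 livers, and next to last in both vehicle groups. Part of this order depended on the length used. With the longest transcript as length Hsd11b1 came second in high fat vehicle livers (181 CPM per kb) and in normal diet livers (310), and Hsd17b2 (251) came before Hsd3b5 (192) in B-LGND2 livers.

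**Figure D3:**
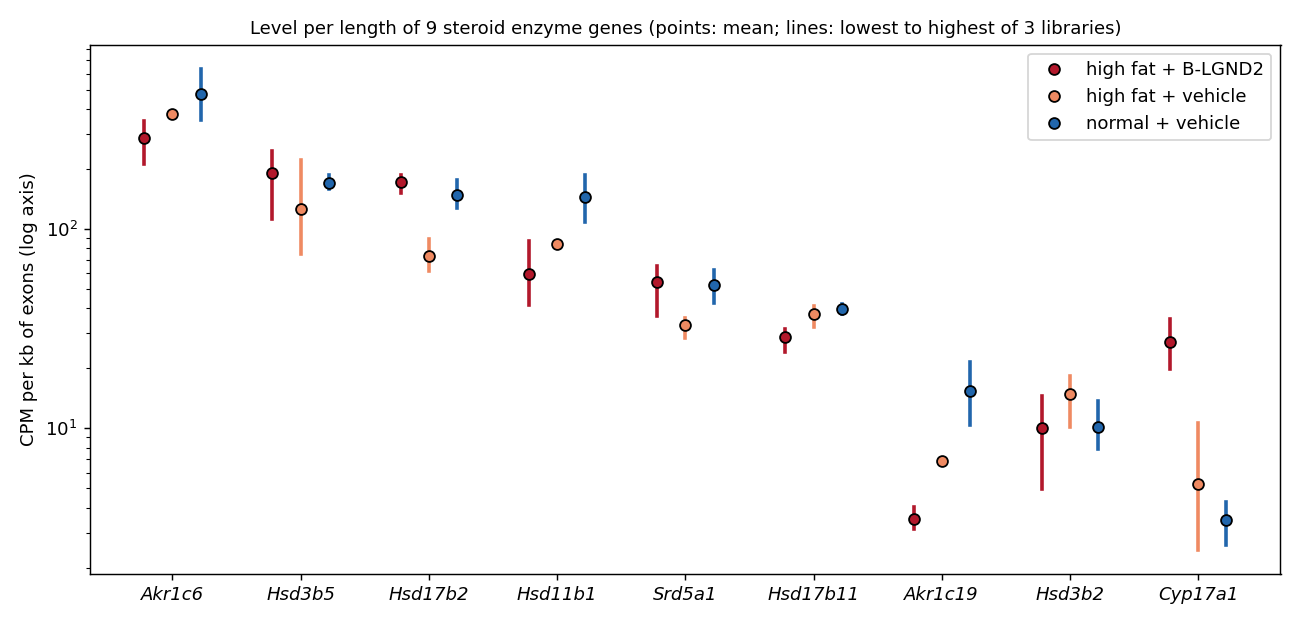
Level per length of the 9 members tested (CPM per kb of exons, log axis) in B-LGND2, high fat vehicle and normal diet livers; points are means of 3 libraries and lines run from the lowest to the highest library. Akr1c6 has the highest mean in each group (286, 375 and 473 CPM per kb in that order), and Cyp17a1 stands at 27.2, 5.26 and 3.49 CPM per kb.

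Other genes of steroid metabolism were read from the same test: 66 were listed, 65 were in the table and 37 were tested. With B-LGND2 against high fat vehicle 2 rose and 3 fell, where 3.07% of all genes rose and 2.56% fell. Of the 37, 29 had a log2 fold change below 0 (median −0.27, against −0.003 over all genes). Akr1d1, which reduces the steroid ring on the path to bile acids and in hormone clearance, had 26.0 ± 5.83 CPM in B-LGND2 livers and 81.5 ± 16.3 CPM in high fat vehicle livers (SD, n = 3 each), and fell by 1.65 on the log2 scale (edgeR adjusted p = 0.00163). Hsd17b13, a lipid droplet protein of hepatocytes, had 74.5 ± 18.7 CPM with B-LGND2 and 144 ± 13.5 CPM with high fat vehicle (−0.95, edgeR adjusted p = 0.0246).

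Papss2, which makes the sulfate donor for sulfotransferases, had 101 ± 12.4 CPM in B-LGND2 livers and 199 ± 17.4 CPM in high fat vehicle livers (−0.98, edgeR adjusted p = 0.0262). Esr1, the gene of estrogen receptor alpha, had 36.4 ± 8.47 CPM with B-LGND2 and 16.8 ± 5.78 CPM with high fat vehicle (1.11, edgeR adjusted p = 0.0287). Esr2, which encodes the receptor named in the series title, had 0 counts in all 9 libraries. The carbonyl reductase gene Cbr1, named after its values were seen to complete the count, was at 123 ± 30.1 CPM with B-LGND2 and 63.0 ± 16.2 CPM with high fat vehicle (0.97, edgeR adjusted p = 0.0416). Neither Esr1 nor Cbr1 passed when libraries were not scaled (edgeR adjusted p = 0.0570 and 0.0747), where 0 of the 37 rose and 7 fell. The count of 5 was 2 without the first high fat vehicle library or the first B-LGND2 library, 1 without the second or the third high fat vehicle library, 3 without the third B-LGND2 library and 9 without the third normal diet library.

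With the high fat diet against the normal diet 0 of the 37 passed the edgeR test, where 2.99% of all genes did. The DESeq2 Wald test called 2. An unadjusted p under 0.05 was reached by 11 of the 37, where 22.4% of all genes reached it. Of the 37, 25 had a log2 fold change below 0 (median −0.12, against 0.005 over all genes). Without the first normal diet library the edgeR test called 5.

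B-LGND2 livers against normal diet livers had 0 that rose and 6 that fell, where 1.59% of all genes rose and 1.33% fell. The log2 fold change was below 0 for 28 of the 37 (median −0.38, against −0.006). Akr1d1 and Hsd17b13 were lower here too, at 58.4 ± 4.04 and 144 ± 19.9 CPM in normal diet livers (−1.17 and −0.95, edgeR adjusted p = 0.0156 and 0.0307). Members of the chromosome 13 cluster that fell were Akr1c14, a hydroxysteroid dehydrogenase acting on dihydrotestosterone, at 211 ± 37.9 CPM with B-LGND2 and 420 ± 98.3 CPM on normal diet (−0.99, edgeR adjusted p = 0.0307), and Akr1c13, at 16.5 ± 3.00 and 35.7 ± 16.2 CPM in those groups (−1.12, edgeR adjusted p = 0.0474). Sult2a8, a hepatic bile acid sulfotransferase, had 233 ± 79.4 CPM with B-LGND2 and 516 ± 128 CPM on normal diet (−1.15, edgeR adjusted p = 0.0261). Pgrmc1, a heme-binding membrane protein that associates with cytochromes P450, had 645 ± 33.1 CPM with B-LGND2 and 1331 ± 451 CPM on normal diet (−1.05, edgeR adjusted p = 0.0290). The count of 6 was 9 without the first normal diet library, 3 without the second and 2 without the third. It was 3 without the first or the third high fat vehicle library, 0 without the first B-LGND2 library and 2 without the second or the third.

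**Figure D4:**
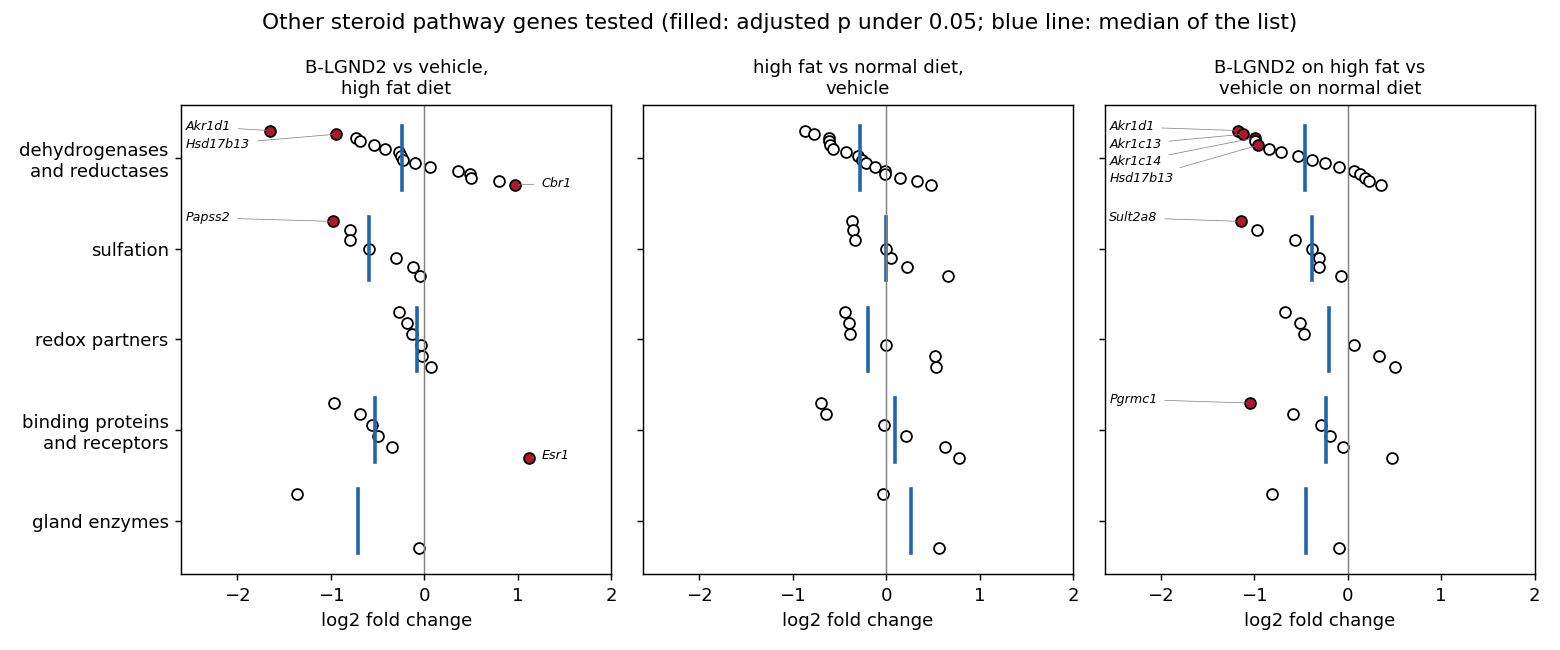
Log2 fold change (x axis) of the 37 other steroid pathway genes tested, grouped by role (y axis) and, within a role, ordered from lowest to highest, in the 3 comparisons; filled points have an edgeR adjusted p under 0.05 and the blue line is the median of a role. Called points number 5 for B-LGND2 against high fat vehicle, 0 for high fat against normal diet and 6, all below 0, for B-LGND2 against normal diet.

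The genes whose profile over the 9 libraries lay closest to that of Hsd17b2 were Tfpi, Faim and Ajuba. Their mean absolute difference in centred log2 CPM was 0.166, 0.169 and 0.173, where the median over all genes tested was 0.593. Closest to Akr1c19 were Bdh2, Cth and Gsta4, at 0.264, 0.265 and 0.283, where the median was 0.798. These likenesses are descriptions over 9 libraries that also share depth and composition.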

How the data were processed

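Poly(A)-enriched liver RNA was sequenced on an Ion Torrent Proton, per the labels' protocols. The authors deposited a table of raw counts per gene for the 9 libraries. The mouse build GRCm38.p3 and the tools HTSeq 0.6.1p1, TopHat2 2.0.13, DESeq2 1.6.3, Bowtie2 2.2.4 and SAMtools 0.1.19 are named per the submitters' processing notes. How reads were assigned to genes, with which annotation and strand setting, is not given in the sources used here, so reads of overlapping or antisense genes cannot be told apart. Libraries were amplified, and no molecular identifiers were used as far as the labels say.

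In R 4.3.3, genes were filtered with filterByExpr of edgeR 4.0.16 (minimum count 10), leaving 12102 of 45513 genes. Libraries were scaled by TMM, and 1 robust quasi-likelihood model was fitted to all 9 libraries (6 residual degrees of freedom), with 3 two-sided contrasts and Benjamini-Hochberg adjustment over all genes tested (threshold 0.05). An exact permutation test of 3 against 3 cannot go below 0.1, so none was run. CPM values are on TMM-scaled totals, and CPM per kb uses the union of exons of GENCODE M21.

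The members and gene lists were chosen with earlier results of these data known. All 10 members are described. Up to 4 called genes per other list were named by smallest p, and the nearest profiles are given for the member with the smallest p in each comparison. The labels give an n of 3 per group and no batch, and the p-values rest on the spread between those libraries. Alternatives used DESeq2 1.42.0 and limma 3.58.1.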

Additional observations from a re-analysis of the deposited data

How the results depend on the processing

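Member calls numbered 2 for high fat against normal diet, 3 for B-LGND2 against high fat vehicle and 3 for B-LGND2 against normal diet. They were 2, 3 and 3 without scaling, which shifted the median of all genes by 0.171 and −0.178 in the first and second comparison and moved the share of higher among all calls to 72.6% and 31.1% (main shares 50.3% and 54.5%). For the first comparison they were 1 when only the groups compared were fitted and 1 with offsets for length and GC content. The offsets also lost the Akr1c19 call in the second comparison and the Hsd11b1 call in the third. Fitting only the groups compared lost Hsd11b1 in the third and added Srd5a1 in the second. With the ribosomal RNA share as a covariate member calls were 0 in all 3. Leaving out 1 library gave 0 to 2, 1 to 4 and 2 to 4 member calls. Over all genes (362, 681 and 354 calls) it gave 35 to 1860, 100 to 1439 and 111 to 639, and over the pathway list (0, 5 and 6) 0 to 5, 1 to 9 and 0 to 9. All-gene calls were 1182, 1345 and 751 without a filter, 969, 1123 and 660 by the DESeq2 Wald test, 153, 1420 and 144 with only the groups compared, and 1, 2 and 12 with the ribosomal covariate. Pathway calls for the first comparison were 1 without scaling, 2 without a filter, 2 by the Wald test and 1 with length and GC offsets. For the second they were 9 by the Wald test, 8 with only the groups compared, 0 with the ribosomal covariate and 8 with the offsets, and for the third 1, 0 and 1 under the last 3 of these.

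Whether the replicate numbers pair the libraries is not given in the sources used here. Each gene's mean log2 CPM within a group was subtracted, and the remainders were correlated between libraries of different groups. These values do not describe how alike whole profiles were. Correlations of same-numbered libraries were −0.082, 0.124 and 0.004, 0.023, 0.033 and 0.059, and −0.193, 0.058 and −0.073 in the 3 comparisons. Those of differently numbered libraries ran from −0.125 to 0.178. With 3 libraries a group these values cannot show or exclude a pairing. With the replicate number as a block, member calls were 2, 2 and 3 (Akr1c19 missed the threshold in B-LGND2 against high fat vehicle, edgeR adjusted p = 0.0606), all-gene calls 203, 492 and 253, and pathway calls 0, 3 and 5. The 3 pathway calls all fell, and Esr1 and Cbr1 missed the threshold (edgeR adjusted p = 0.0548 and 0.0711).

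Signs turned for values that had passed no test. Hsd17b11 in high fat against normal diet was 0.084 without scaling, 0.13 with length and GC offsets and −0.152 to 0.016 when 1 library was left out. With those offsets Akr1c6 in that comparison was 0.16, Hsd3b2 in B-LGND2 against normal diet 0.16 and Srd5a1 −0.021. With the ribosomal covariate Hsd3b2 was −0.82 in high fat against normal diet, 2.03 in B-LGND2 against high fat vehicle and 1.21 in B-LGND2 against normal diet, and in B-LGND2 against high fat vehicle Akr1c6 was 0.53 and Hsd11b1 1.79. When 1 library was left out, values in B-LGND2 against normal diet ran from −0.376 to 0.305 for Hsd3b2, from −0.091 to 0.272 for Srd5a1 and from −0.042 to 0.446 for Hsd3b5. Cyp17a1 in high fat against normal diet ran from −0.442 to 0.936, below 0 without the second high fat vehicle library alone. The cause was not tested. With the longest transcript as length, the level of Hsd11b1 on normal diet was 310 CPM per kb, against 144 with the union of exons. With 3 libraries a group, a p that misses the threshold does not show that levels were alike.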
